A study of Mus musculus with 6 samples.

Results

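Aminoacyl-tRNA synthetases are the enzymes that join each amino acid to its matching tRNA, the step that supplies ribosomes with charged tRNA. Mammalian cells hold a cytosolic set, which serves translation of nuclear messages, and a mitochondrial set, which is also encoded in the nucleus and serves the few proteins made inside mitochondria. By convention the symbol of a mitochondrial enzyme ends in 2, while *Gars* and *Kars* each encode the enzyme of both compartments. Several cytosolic enzymes sit together in the multisynthetase complex, held by the scaffold proteins of *Aimp1*, *Aimp2* and *Eef1e1*. Many cytosolic synthetase genes are known targets of ATF4, the transcription factor of the amino acid response, and T cells raise translation when they are activated. The genes described here are 36 synthetase genes of the 56748 genes listed, 20 cytosolic and 16 mitochondrial, taken by symbol from a list of names. Each of the 36 was matched to 1 gene of the table, and each passed the filter on low counts, so that 36 of 36 were tested.

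RNA-seq was performed on 6 samples of murine CD4 T cells, helper T cells of wild-type C57BL/6 mice aged 6 to 10 weeks. Naïve cells from spleen and lymph nodes were activated through CD3 and CD28 under Treg polarizing conditions for 3 days and were not sorted before RNA was taken. Each was cultured with an antisense oligonucleotide (ASO), a short synthetic strand made to pair with a chosen RNA, at 10 μM. The ASO was scrambled in 3 libraries and directed against *Pgam*, the glycolytic enzyme phosphoglycerate mutase, in the other 3. The libraries labelled scrambled ASO held 17588755 (replicate 1), 18032805 (replicate 2) and 16231127 (replicate 3) counts. Those labelled *Pgam* ASO held 16589933, 15860476 and 16803881 counts in the same order. Expression is given in CPM, the counts of a gene in proportion to the total of its library, with edgeR's TMM scaling. A fold change is the *Pgam* ASO label over the scrambled ASO label, so a positive log2 value is higher under the *Pgam* ASO label. Tests are edgeR's two-sided quasi-likelihood test with Benjamini-Hochberg adjustment over all 14936 tested genes, and a gene is called higher or lower at an adjusted p under 0.05. The study's legend calls the replicates biological, and the labels and methods do not say whether each came from a separate animal, so the p-values measure the spread between these samples.

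The ASO targets were examined first. *Pgam1* was at 599.6, 478 and 707 CPM in replicates 1, 2 and 3 labelled scrambled ASO and at 658, 661 and 707 CPM in replicates 1, 2 and 3 labelled *Pgam* ASO. The groups overlapped, and the log2 fold change of *Pgam1* was 0.18 (standard error 0.126, edgeR adjusted p = 0.331). It was 0.05 without scrambled ASO replicate 2 (edgeR adjusted p = 0.793) and 0.33 without scrambled ASO replicate 3 (edgeR adjusted p = 0.0528). *Pgam2*, the muscle form, was at 5.23, 6.75 and 2.85 CPM against 2.98, 2.69 and 2.60 CPM, and its log2 fold change was -0.84 (standard error 0.312, edgeR adjusted p = 0.0854). The highest *Pgam* ASO library of *Pgam2* lay just above the lowest scrambled ASO library, and without scrambled ASO replicate 3 the log2 fold change was -1.11 (edgeR adjusted p = 0.0144). Without scrambled ASO replicate 2 it was -0.56 (edgeR adjusted p = 0.286). *Pgam2* was also called lower when genes of low counts were kept in the edgeR fit (adjusted p = 0.0292). With all 6 libraries and the filter, neither targeted transcript was called lower, and protein was not analysed here, so the groups are named by their labels throughout, and each direction below is that between the labels.

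Cytosolic synthetase genes were higher in the libraries labelled *Pgam* ASO. Of the 20 cytosolic genes, 15 were called higher, against 8.03% of all tested genes. None was called lower (0 of 20 by edgeR, DESeq2 and limma-voom, and 0 with an unadjusted edgeR p under 0.05), against 9.15% of all tested genes. In 18 of the 20, every library labelled *Pgam* ASO lay above every library labelled scrambled ASO, as was the case for 19.6% of all tested genes. The median log2 fold change of the 20 genes was 0.48, a 1.39-fold difference, while that of all tested genes was -0.006. The highest of the 20 was *Cars* and the lowest was *Qars*.

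**Figure D1:**
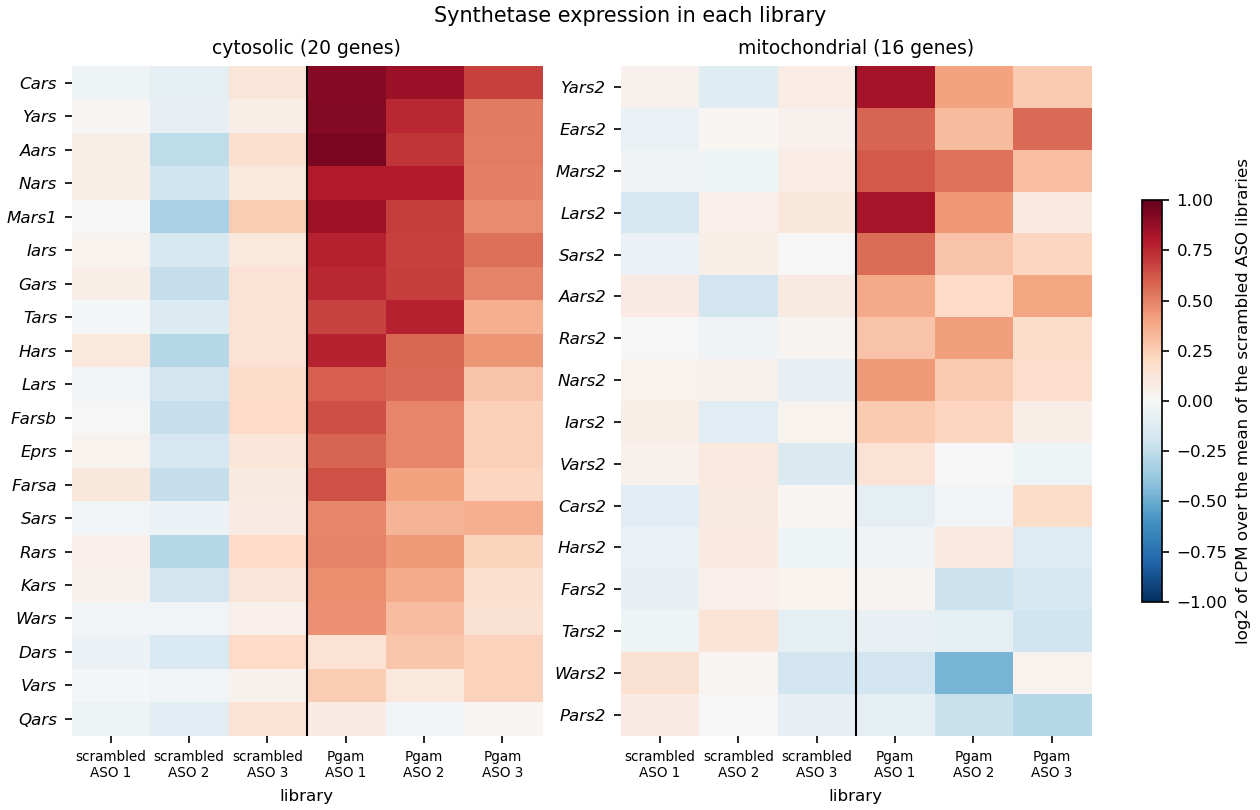
Expression of each synthetase gene in each of the 6 libraries, as the log2 of its CPM over the mean of the 3 libraries labelled scrambled ASO, with the genes ordered by fold change. All cytosolic genes but *Qars* lie above that mean in all 3 libraries labelled *Pgam* ASO, while the mitochondrial genes run from *Yars2*, above it in all 3, to *Pars2*, below it in all 3.

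*Cars* (ENSMUSG00000010755), which charges tRNA with cysteine, spans 143557230 to 143600090 of chromosome 7 (GRCm38 positions, from GENCODE M21). It was at 54.7, 52.9 and 61.3 CPM in replicates 1, 2 and 3 labelled scrambled ASO and at 106, 102 and 90.4 CPM in replicates 1, 2 and 3 labelled *Pgam* ASO. The groups were well apart, with the lowest *Pgam* ASO library (replicate 3) 47.3% above the highest scrambled ASO library (replicate 3). Means were 56.3 ± 4.44 CPM and 99.4 ± 8.04 CPM (SD, n = 3 each), and the log2 fold change was 0.82 (standard error 0.0958, 95% interval 0.61 to 1.03, edgeR adjusted p = 0.00124).

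*Yars* (ENSMUSG00000028811), the tyrosine enzyme, lies on chromosome 4 from 129189760 to 129219607. The libraries labelled scrambled ASO gave 70.1, 65.7 and 72.8 CPM, and those labelled *Pgam* ASO gave 132, 118 and 99.6 CPM, in replicates 1, 2 and 3. The scrambled ASO values lay close together, and the *Pgam* ASO values were more spread, with replicate 1 the highest and replicate 3 the lowest. The log2 fold change of *Yars* was 0.74 (standard error 0.108, 95% interval 0.50 to 0.98, edgeR adjusted p = 0.00324).

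*Aars* (ENSMUSG00000031960), the alanine enzyme on chromosome 8 from 111033144 to 111057664, showed 148, 119 and 159 CPM in the libraries labelled scrambled ASO and 273, 234 and 203 CPM in those labelled *Pgam* ASO. Replicate 2 was the lowest of the scrambled ASO libraries and replicate 1 the highest of the *Pgam* ASO libraries, without overlap. The log2 fold change was 0.73 (standard error 0.133, edgeR adjusted p = 0.00863), and without *Pgam* ASO replicate 2 the edgeR adjusted p was 0.0528. *Aars* shares 13.8% of its 31-base stretches with *Exosc6*, which lies within its exons on the same strand and had 0 counts in every library. Reads of that stretch cannot be told apart between the 2 genes.

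*Nars* (ENSMUSG00000024587), which charges tRNA with asparagine, had 152, 127 and 157 CPM in the libraries labelled scrambled ASO and 251, 251 and 206 CPM in those labelled *Pgam* ASO. Again no library of one label reached into the range of the other. Its log2 fold change was 0.70 (standard error 0.112, edgeR adjusted p = 0.00507). *Cars*, *Yars*, *Nars* and *Iars* were called higher under each of the 14 alternative fits, the 6 that leave out 1 library included.

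At the other end, *Qars* (ENSMUSG00000032604), which charges tRNA with glutamine and belongs to the multisynthetase complex, was at 208, 200.5 and 238 CPM in the libraries labelled scrambled ASO. In those labelled *Pgam* ASO it was at 228, 212 and 218 CPM. These lie inside the scrambled ASO range, and the log2 fold change was 0.02 (95% interval -0.17 to 0.22, edgeR adjusted p = 0.872). The sign of so small a value turned with the scaling, to -0.01 with library size alone.

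The remaining called genes spanned log2 fold changes from 0.31 to 0.68. *Mars1*, for methionine, had 0.68, *Iars*, for isoleucine, 0.67, *Gars*, for glycine, 0.65, *Tars*, for threonine, 0.61 and *Hars*, for histidine, 0.60. Smaller log2 fold changes were those of *Lars*, for leucine, at 0.49, *Farsb* and *Farsa*, the 2 subunits of the phenylalanine enzyme, at 0.47 and 0.43, *Eprs*, the joined glutamate and proline enzyme, at 0.44, and *Sars*, for serine, at 0.40. *Wars*, for tryptophan, had the smallest among called genes at 0.31 (edgeR adjusted p = 0.0454). *Wars* had an adjusted p of 0.0506 in limma-voom, 0.0513 in edgeR with library size alone, and 0.155, 0.0956, 0.159 and 0.148 in edgeR without scrambled ASO replicate 1, scrambled ASO replicate 2, *Pgam* ASO replicate 1 and *Pgam* ASO replicate 2. Apart from *Iars*, each gene of this range lost its call without at least 1 library, the highest such edgeR adjusted p being 0.0555 for *Gars* (without *Pgam* ASO replicate 2) and 0.159 for *Wars*. The genes not called were *Rars* for arginine (log2 fold change 0.38, edgeR adjusted p = 0.0588), *Kars* for lysine (0.34, edgeR adjusted p = 0.0549), *Dars* for aspartate (0.22, edgeR adjusted p = 0.152), *Vars* for valine (0.20, edgeR adjusted p = 0.102) and *Qars*. *Rars* and *Kars* were separate between the groups by a narrow margin, 1.82% and 2.94% between the nearest libraries. DESeq2 called *Rars* and *Kars* higher, with adjusted p of 0.0302 and 0.0269. In edgeR *Rars* had an adjusted p of 0.0220 without scrambled ASO replicate 3 and 0.0366 without *Pgam* ASO replicate 3, *Kars* 0.0334 and 0.0259, and *Dars* 0.0333 without scrambled ASO replicate 3.

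**Figure D2:**
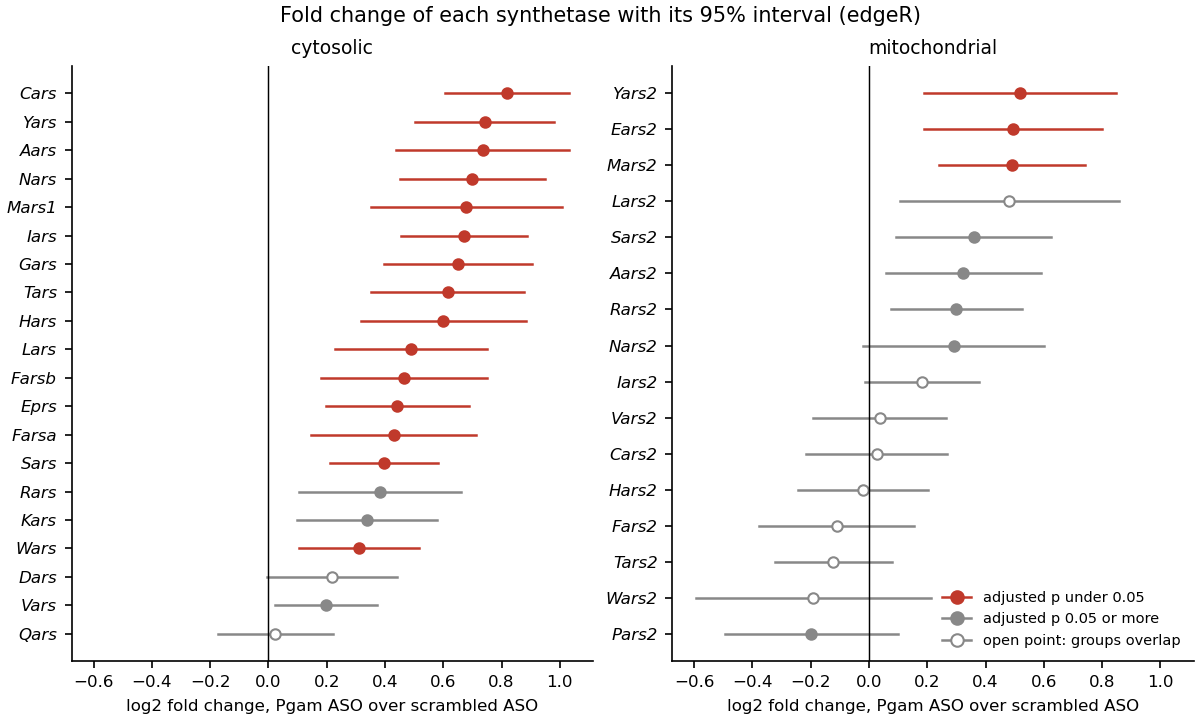
The log2 fold change of each synthetase gene, libraries labelled *Pgam* ASO over those labelled scrambled ASO, with its 95% interval from edgeR, cytosolic genes on the left and mitochondrial genes on the right. Red marks the 15 cytosolic and 3 mitochondrial genes with an adjusted p under 0.05, and open points mark genes whose groups overlap.

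Within the cytosolic set, 4 of the 8 genes of the multisynthetase complex were called higher, against 8.03% of all tested genes, with a median log2 fold change of 0.41. Of the 12 genes outside the complex 11 were called, with a median of 0.61. The complex thus held both *Mars1* and *Iars*, near the top of the set, and *Qars* at its foot. By structural class, 6 of 9 genes of class I and 8 of 10 of class II were called, against the same 8.03%, with medians of 0.49 and 0.53, and *Eprs* carries a domain of each class. These splits are descriptions, and the difference between them was not tested. Of the 3 scaffold genes 2 were called, again beside 8.03% of all tested genes. *Eef1e1* was called higher (log2 fold change 0.56, edgeR adjusted p = 0.0403), and so was *Aimp2* (0.40, edgeR adjusted p = 0.0394). These 2 calls were lost without scrambled ASO replicate 1 or 2, where edgeR called 1.45% and 3.25% of all tested genes higher. They were also lost without *Pgam* ASO replicate 1 or 2, where it called 2.1% and 1.03%. Each of these fits left 0 of 3 called. With all libraries DESeq2 and limma-voom each called 2. *Aimp1* was at 77.5, 82.1 and 90.8 CPM against 81.4, 80.1 and 81.1 CPM, and its groups overlapped (log2 fold change -0.04, edgeR adjusted p = 0.743).

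The libraries of a label were not alike. Scrambled ASO replicate 2 was the lowest library for each of the 20 cytosolic genes, and *Pgam* ASO replicate 1 was the highest for 17 of them. In 15 of the 18 cytosolic genes without overlap, the nearest libraries across the labels were the 2 numbered 3. Summed over the 20 genes, expression was 3015, 2684 and 3251 CPM in replicates 1, 2 and 3 labelled scrambled ASO. It was 4407, 4115 and 3730 CPM in replicates 1, 2 and 3 labelled *Pgam* ASO. The groups did not overlap, and their means were 2983 ± 285 CPM and 4084 ± 340.0 CPM (SD, n = 3 each), 1.37-fold apart.

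The number of calls rested on single libraries. With scrambled ASO replicate 1, 2 or 3 left out, 7, 11 and 18 cytosolic genes were called higher, and with *Pgam* ASO replicate 1, 2 or 3 left out, 7, 4 and 17. The share of all tested genes called higher moved with them, to 1.45%, 3.25%, 11.0%, 2.10%, 1.03% and 10.2% in the same order. The median log2 fold change of the cytosolic genes moved less, between 0.39 and 0.58. At an adjusted p under 0.01, 6 of the 20 were called higher, while 453 of all 14936 tested genes were called in either direction.

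The RefSeq table of promoters on GRCm38.p6, with 250 bases before and 50 after a start site, held 27 of the 36 genes under the symbols used here. It held none under the symbols *Cars*, *Hars*, *Lars*, *Nars*, *Rars*, *Vars*, *Wars*, *Hars2* and *Pars2*. Other symbols of these genes were not searched. Each promoter was searched on both strands for TGATGNAAN, the core of the C/EBP-ATF response element that ATF4 binds, for CACGTG, an E-box, and for GCGCNTGCG, a motif of NRF1, a regulator of nuclear genes for mitochondria. The C/EBP-ATF core stood in 5 of 13 cytosolic promoters, 0 of 15 mitochondrial promoters (14 genes) and 3.95% of all 32851 promoters. The 5 were those of *Aars*, *Gars*, *Iars*, *Tars* and *Yars*, whose log2 fold changes ran from 0.61 to 0.74. The 8 cytosolic genes without a match ran from 0.02 to 0.68. A match says only that the letters are there, and binding was not measured.

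These 5 promoters are shown because they hold the core, with that of *Qars* beside them as the cytosolic gene with the smallest change. They are written 5′ to 3′ on the strand of the gene, with matches to any of the 3 motifs in capitals (of the C/EBP-ATF core, the letters up to its free last base). On the plus strand lie *Aars* (chr8:111033592-111033891), *Gars* (chr6:55037751-55038050), *Iars* (chr13:49681880-49682179), *Yars* (chr4:129189653-129189952) and *Qars* (chr9:108507755-108508054). On the minus strand lies *Tars* (chr15:11399609-11399908).
Aars: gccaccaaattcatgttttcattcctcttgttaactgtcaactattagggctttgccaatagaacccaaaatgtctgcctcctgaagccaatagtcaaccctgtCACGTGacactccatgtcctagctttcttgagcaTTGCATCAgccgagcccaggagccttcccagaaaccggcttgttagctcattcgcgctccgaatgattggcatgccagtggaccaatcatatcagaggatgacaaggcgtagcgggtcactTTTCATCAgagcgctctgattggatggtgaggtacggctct
Gars: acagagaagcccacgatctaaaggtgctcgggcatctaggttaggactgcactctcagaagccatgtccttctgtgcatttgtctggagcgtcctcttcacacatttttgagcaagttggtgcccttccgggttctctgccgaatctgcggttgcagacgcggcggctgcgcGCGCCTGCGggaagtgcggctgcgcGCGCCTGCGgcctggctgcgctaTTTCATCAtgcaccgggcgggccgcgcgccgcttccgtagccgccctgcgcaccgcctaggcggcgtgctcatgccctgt
Iars: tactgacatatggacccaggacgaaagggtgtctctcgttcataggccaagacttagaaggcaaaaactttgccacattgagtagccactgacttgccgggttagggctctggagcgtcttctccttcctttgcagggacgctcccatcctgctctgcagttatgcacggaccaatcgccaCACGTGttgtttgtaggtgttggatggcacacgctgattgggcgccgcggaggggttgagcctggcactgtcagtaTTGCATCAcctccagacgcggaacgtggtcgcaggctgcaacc
Tars: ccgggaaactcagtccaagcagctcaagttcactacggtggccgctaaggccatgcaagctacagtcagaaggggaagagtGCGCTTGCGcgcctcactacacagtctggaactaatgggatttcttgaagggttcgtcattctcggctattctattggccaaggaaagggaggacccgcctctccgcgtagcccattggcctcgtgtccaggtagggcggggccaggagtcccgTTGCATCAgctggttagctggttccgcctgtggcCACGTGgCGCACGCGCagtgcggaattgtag
Yars: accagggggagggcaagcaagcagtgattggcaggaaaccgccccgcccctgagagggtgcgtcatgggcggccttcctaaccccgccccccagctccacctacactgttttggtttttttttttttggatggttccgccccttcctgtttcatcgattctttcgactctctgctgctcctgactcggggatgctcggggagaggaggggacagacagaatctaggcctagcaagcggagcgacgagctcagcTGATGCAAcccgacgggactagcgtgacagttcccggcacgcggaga
Qars: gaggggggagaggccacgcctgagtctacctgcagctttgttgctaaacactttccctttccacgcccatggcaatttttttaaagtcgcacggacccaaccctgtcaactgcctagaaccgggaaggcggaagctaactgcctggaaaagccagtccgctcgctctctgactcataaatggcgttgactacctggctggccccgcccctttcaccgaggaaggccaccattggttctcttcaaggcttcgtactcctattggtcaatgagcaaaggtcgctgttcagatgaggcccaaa
The core, read on either strand, is TTGCATCA in *Aars*, *Iars* and *Tars*, TTTCATCA in *Gars* and at a further place in *Aars*, and TGATGCAA in *Yars*. Counting the first transcribed base as 1 and the base before it as -1, in *Aars* its first base lies at -112 and at 10, in *Gars* at -30, in *Iars* at 8, in *Tars* at -15 and in *Yars* at 4. The E-box stood in the promoters of *Aars*, *Farsb*, *Iars* and *Tars*, 4 of 13 cytosolic promoters, in that of *Ears2* alone among 15 mitochondrial promoters, and in 7.15% of all promoters. The NRF1 motif stood in 6 of 13 cytosolic promoters (*Farsa*, *Farsb*, *Gars*, *Kars*, *Mars1* and *Tars*), 4 of 15 mitochondrial ones (*Iars2*, *Mars2*, *Vars2* and *Wars2*) and 6.31% of all promoters. The cytosolic genes with the E-box ran from a log2 fold change of 0.466 to 0.735 and those without it from 0.024 to 0.742. Those with the NRF1 motif ran from 0.339 to 0.678 and those without it from 0.024 to 0.742. The mitochondrial genes with the NRF1 motif ran from -0.19 to 0.49. Differences between genes with and without a motif were not tested.

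**Figure D3:**
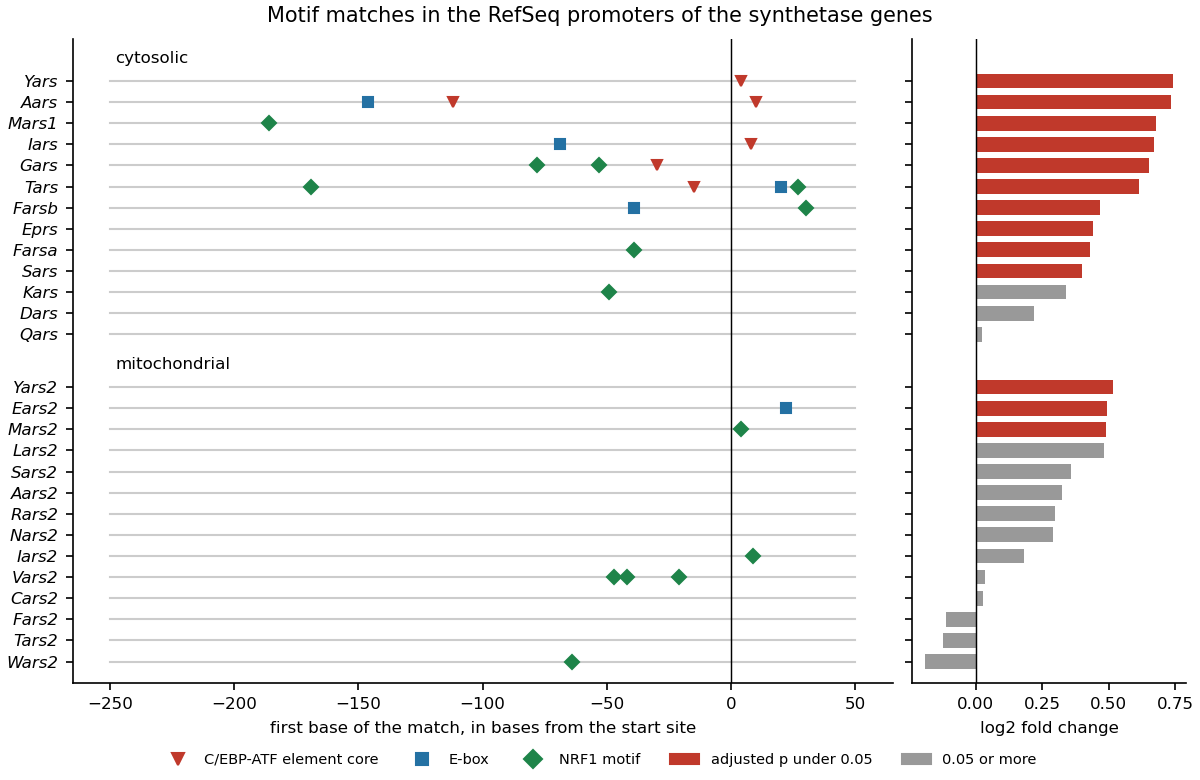
Places of the 3 motifs in the promoters of the 27 synthetase genes with a RefSeq entry under the symbols used here, from 250 bases before to 50 after the start site (left), and the log2 fold change of each gene (right). The C/EBP-ATF core appears in 5 cytosolic genes with log2 fold changes from 0.61 to 0.74 and in 0 of the mitochondrial promoters. The E-box appears in 4 cytosolic genes, from 0.466 to 0.735, and the NRF1 motif in 6, from 0.339 to 0.678.

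Mitochondrial synthetase genes were divided. Of the 16, 3 were called higher, against 8.03% of all tested genes. None was called lower (0 of 16 by edgeR, DESeq2 and limma-voom, and 0 with an unadjusted edgeR p under 0.05), against 9.15% of all tested genes. In 7 of the 16 every library labelled *Pgam* ASO lay above every library labelled scrambled ASO, against 19.6% of all tested genes. In 1 of the 16 every such library lay below, against 19.8% of all tested genes. The median log2 fold change was 0.24, with 11 values above 0 and 5 below. The 3 calls were *Yars2*, *Ears2* and *Mars2*, all class I enzymes. By class, 3 of 9 mitochondrial genes of class I and 0 of 7 of class II were called higher, against the same 8.03%. The difference between the classes was not tested.

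*Yars2* (ENSMUSG00000022792), the mitochondrial tyrosine enzyme, lies on chromosome 16 from 16302965 to 16309640. It was at 24.6, 22.0 and 25.2 CPM in replicates 1, 2 and 3 labelled scrambled ASO and at 42.5, 31.6 and 28.7 CPM in replicates 1, 2 and 3 labelled *Pgam* ASO. *Pgam* ASO replicate 1 stood above the other 2 of its label, and the groups did not overlap. The log2 fold change was 0.52 (standard error 0.148, edgeR adjusted p = 0.0400), and without *Pgam* ASO replicate 1 it was 0.34 (edgeR adjusted p = 0.126). The call was also lost without scrambled ASO replicate 1 (edgeR adjusted p = 0.107), scrambled ASO replicate 2 (0.1) and *Pgam* ASO replicate 2 (0.110).

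*Ears2* (ENSMUSG00000030871), for glutamate, is a gene of low expression on chromosome 7 from 122037213 to 122067263. The libraries labelled scrambled ASO gave 10.2, 10.9 and 11.0 CPM and those labelled *Pgam* ASO 15.96, 13.3 and 15.9 CPM. Here *Pgam* ASO replicates 1 and 3 were high and replicate 2 lower, yet all 3 lay above the scrambled ASO range. Its log2 fold change was 0.49 (standard error 0.138, edgeR adjusted p = 0.0368). The call of *Ears2* held without scrambled ASO replicate 3 and was lost without each other library, with edgeR adjusted p of 0.137 and 0.0773 without scrambled ASO replicates 1 and 2 and of 0.117, 0.0878 and 0.0656 without *Pgam* ASO replicates 1, 2 and 3.

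*Mars2* (ENSMUSG00000046994), for methionine, on chromosome 1 from 55237177 to 55248470, was at 23.3, 23.1 and 25.0 CPM in the libraries labelled scrambled ASO and at 36.3, 34.8 and 29.3 CPM in those labelled *Pgam* ASO. The scrambled ASO values were nearly level, and the nearest libraries were again those numbered 3. The log2 fold change of *Mars2* was 0.49 (standard error 0.113, edgeR adjusted p = 0.0207). Without scrambled ASO replicate 1, *Pgam* ASO replicate 1 or *Pgam* ASO replicate 2, its edgeR adjusted p was 0.0849, 0.0725 and 0.104. With scrambled ASO replicate 1, 2 or 3 left out 0, 1 and 3 mitochondrial genes were called higher, against 1.45%, 3.25% and 11.0% of all tested genes. With *Pgam* ASO replicate 1, 2 or 3 left out 0, 0 and 5 were, against 2.1%, 1.03% and 10.2%.

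*Hars2* (ENSMUSG00000019143), for histidine, had the smallest change of the mitochondrial genes, with 37.4, 41.9 and 38.0 CPM in the libraries labelled scrambled ASO and 38.1, 41.8 and 35.9 CPM in those labelled *Pgam* ASO. The ranges lay over each other, and the log2 fold change was -0.02 (95% interval -0.24 to 0.20, edgeR adjusted p = 0.911). *Hars2* and *Hars* lie head to head on opposite strands and share 195 exonic bases, with 6.68% of the 31-base stretches of *Hars* and 3.83% of those of *Hars2* in the other gene, and whether the counting used strand is not given in the sources used here. The other log2 fold changes near or below 0 were those of *Vars2* (0.04) and *Cars2* (0.03), both slightly below 0 with library size alone, *Fars2* (-0.11), *Tars2* (-0.12), *Wars2* (-0.19) and *Pars2* (-0.20).

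*Pars2*, the mitochondrial proline enzyme, was the member with separate groups in the lower direction. Its values were 14.5, 13.6 and 12.95 CPM in the libraries labelled scrambled ASO and 12.8, 11.7 and 11.2 CPM in those labelled *Pgam* ASO. The gap between the nearest libraries was 1.21%, and *Pars2* was not called (edgeR adjusted p = 0.320). Some of these genes share exonic sequence with a neighbour. For *Fars2*, 8.13% of the 31-base stretches are shared with *Nrn1*, on the opposite strand, which had 4573, 4454 and 3991 counts against 1077, 1242 and 1757 counts, and the part of *Nrn1* reads in *Fars2* was not tested. In *Iars2* (log2 fold change 0.18, edgeR adjusted p = 0.170), 22.4% of the stretches are shared with *Rab3gap2*, also on the opposite strand. Exons of *Ears2* and *Ubfd1* share 89 bases, those of *Cars2* and *Naxd* 422, those of *Farsb* and *Sgpp2* 248 and those of *Mars1* and *Ddit3* 68, each pair on opposite strands, and *Iars* shares 14.6% of its stretches with *Gm4849*, at 0 counts in every library. *Sars2* (0.36), *Aars2* (0.32), *Rars2* (0.30) and *Nars2* (0.29) were separate between the groups without being called, with edgeR adjusted p from 0.0619 to 0.166, and without *Pgam* ASO replicate 3 the edgeR adjusted p of *Sars2* was 0.0387 and that of *Rars2* 0.0444.

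*Lars2* (ENSMUSG00000035202), for leucine, stood apart from the other mitochondrial genes by its level. It was at 327, 382 and 399 CPM in the libraries labelled scrambled ASO and at 653, 499 and 395 CPM in those labelled *Pgam* ASO. Replicate 1 labelled *Pgam* ASO was far above the rest, while replicate 3 lay inside the scrambled ASO range. The log2 fold change was 0.48 (standard error 0.166, edgeR adjusted p = 0.0739), and DESeq2 called *Lars2* higher with an adjusted p of 0.0142. Without *Pgam* ASO replicate 3 the log2 fold change of *Lars2* was 0.65 (edgeR adjusted p = 0.0111), and without *Pgam* ASO replicate 1 it was 0.28 (edgeR adjusted p = 0.205). Without 1 of the other libraries the edgeR adjusted p ran from 0.0923 to 0.234, and with no filter on low counts it was 2.2e-05. The gene with the most counts summed over the 6 libraries, ENSMUSG00000119584, which has no symbol in the name table and was chosen here after its values were seen, had 9549, 11401 and 11374 CPM against 17864, 13644 and 11117 CPM. Its log2 fold change was 0.40 (edgeR adjusted p = 0.107). The order of the 3 libraries labelled *Pgam* ASO is that of *Lars2*, and the part of this gene in the counts of *Lars2* was not tested.

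Summed over the 16 mitochondrial genes, expression was 814.5, 873 and 882 CPM in the libraries labelled scrambled ASO and 1220.0, 1034 and 904 CPM in those labelled *Pgam* ASO. The groups were 1.23-fold apart in their means, with *Lars2* the largest single part. Without *Lars2*, left out after its values were seen, the sums were 488, 491 and 483 CPM against 567, 535 and 509 CPM, 1.10-fold apart and without overlap. The ratio of the cytosolic sum to this smaller mitochondrial sum was 6.18, 5.47 and 6.73 under the scrambled ASO label against 7.77, 7.69 and 7.33 under the *Pgam* ASO label. With *Lars2* kept in, the ratio was 3.70, 3.08 and 3.69 against 3.61, 3.98 and 4.13, and the groups overlapped.

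**Figure D4:**
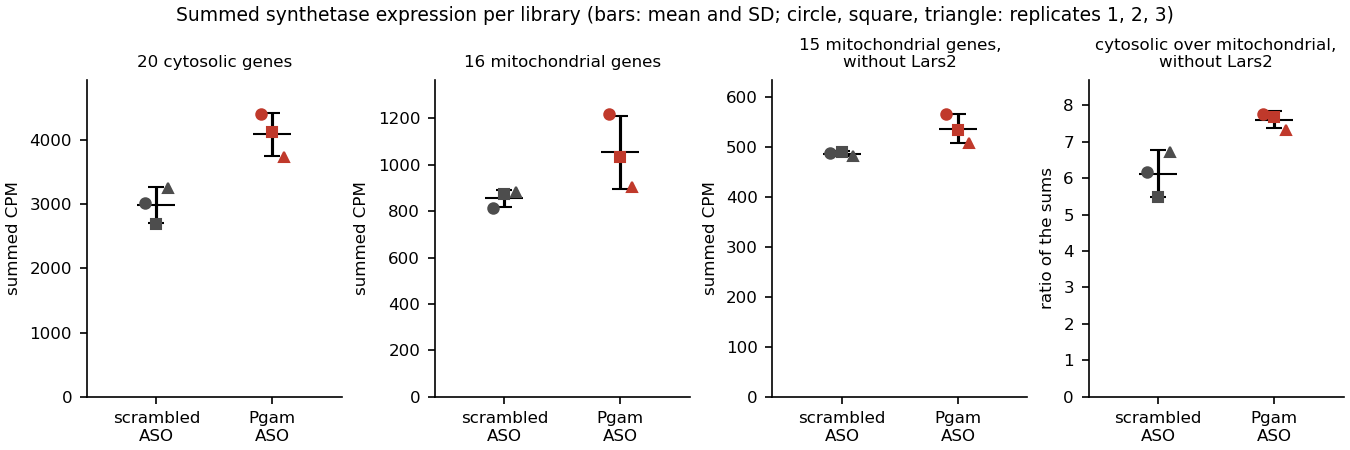
Summed CPM per library of the cytosolic genes, of the mitochondrial genes, of the mitochondrial genes without *Lars2*, and the ratio of cytosolic to mitochondrial sums without *Lars2*, with the mean and SD of the 3 libraries of each label. The cytosolic sums lie between 2684 and 3251 CPM under the scrambled ASO label and between 3730 and 4407 CPM under the *Pgam* ASO label.

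Per kilobase of exon, the cytosolic genes were the more expressed of each pair for the same amino acid in 16 of 17 pairs, by the mean of the libraries labelled scrambled ASO. The median over the pairs of the cytosolic over the mitochondrial level per kilobase was 4.16 times, and *Nars* over *Nars2* was the widest at 21.2 times, while by the longest transcript it was *Eprs* over *Ears2* at 19.5 times and by the median transcript *Mars1* over *Mars2* at 31.4 times. *Lars* over *Lars2* was the exception at 0.546 times, and it was also below 1 by the length of the longest or the median transcript (0.259 and 0.549 times). *Vars* had the highest level of the cytosolic genes at 81.3 CPM per kilobase and *Cars* had 8.56 CPM per kilobase of merged exons. Of the mitochondrial genes *Lars2* had 33.3 CPM per kilobase, and *Nars2* had 1.57 CPM per kilobase of merged exons. *Vars* and *Lars2* led their compartments by each of the 3 lengths, and the order of the other genes depended on the length. The levels of *Lars2*, and the ratios of *Lars* over *Lars2* below, rest on counts in which the part of ENSMUSG00000119584 was not tested.

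To compare the compartments within a library, the ratio of the cytosolic to the mitochondrial count was taken for 17 pairs, a value that does not depend on scaling between libraries. *Dars*, *Gars*, *Kars* and *Qars* have no partner among the 36 genes, *Eprs* was paired with *Ears2* and *Pars2*, and *Farsa* and *Farsb* were each paired with *Fars2*. The ratio was higher in every library labelled *Pgam* ASO than in every library labelled scrambled ASO for 10 of the 17 pairs, lower for 0 and overlapping for 7. Each of these 10 pairs had p = 0.1 (exact permutation test over libraries, two-sided, the smallest that 3 against 3 allow), which is 0.17 after Benjamini-Hochberg adjustment over the 17 pairs, so none passed. The median difference of the log2 ratio was 0.41, and 16 of 17 differences were above 0.

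*Cars* over *Cars2* moved most. Under the scrambled ASO label *Cars* had 1.67, 1.41 and 1.71 times the counts of *Cars2* in replicates 1, 2 and 3. Under the *Pgam* ASO label it had 3.19, 2.93 and 2.24 times the counts. The groups were apart, and the ratio was 1.74 times as high under the *Pgam* ASO label. For *Tars* over *Tars2* the ratios were 1.39, 1.13 and 1.61 against 2.29, 2.49 and 2.01, again without overlap, a 1.66-fold difference. *Eprs* over *Pars2* gave 16.9, 15.6 and 20 against 27.9, 28.5 and 25.0, a 1.55-fold difference. In these 3 pairs the cytosolic gene was called higher, and *Cars2*, *Tars2* and *Pars2* were not called.

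The pair that moved least was *Lars* over *Lars2*, with ratios of 0.294, 0.225 and 0.279 under the scrambled ASO label against 0.227, 0.289 and 0.302 under the *Pgam* ASO label. The groups overlapped, with a 1.02-fold difference. *Eprs* over *Ears2* was the pair with a difference below 0, a log2 value of -0.05 with overlapping groups. The other pairs without overlap had log2 differences of 0.63 for *Hars*, 0.58 for *Farsb*, 0.54 for *Farsa*, 0.49 for *Iars*, 0.41 for *Nars*, 0.41 for *Aars* and 0.23 for *Yars*, each over its mitochondrial partner. *Wars* (0.50), *Mars1* (0.20), *Vars* (0.16), *Rars* (0.10) and *Sars* (0.04) overlapped.

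**Figure D5:**
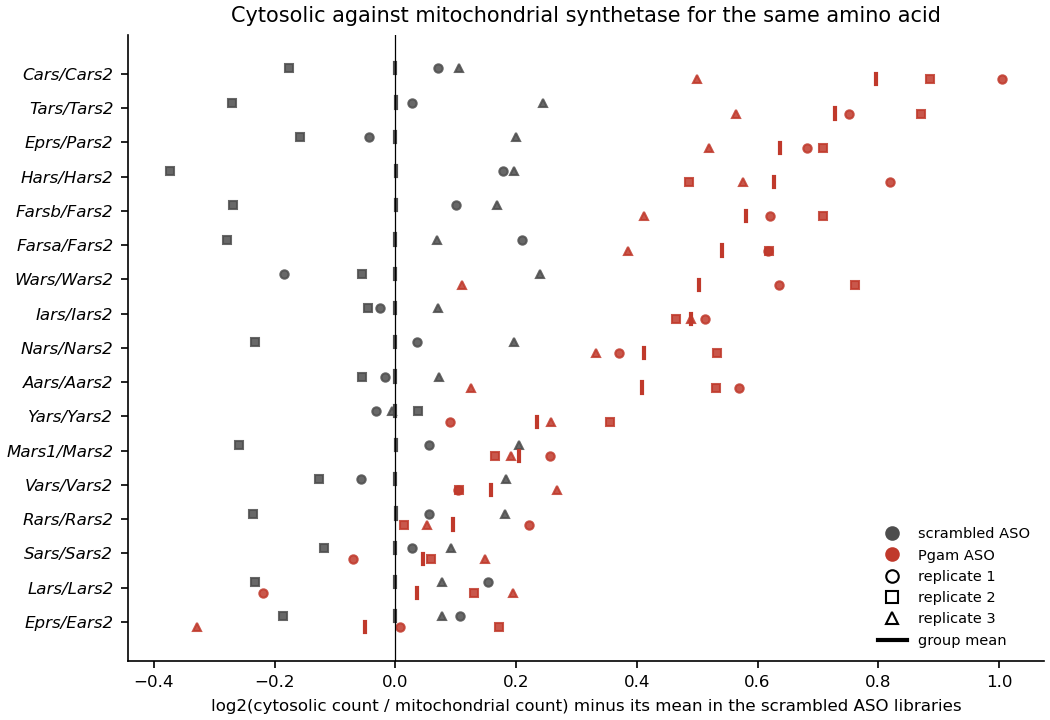
For each of 17 amino acid pairs, the log2 ratio of cytosolic to mitochondrial counts in each library, set to 0 at the mean of the libraries labelled scrambled ASO, with vertical bars at the group means. In 10 pairs, from *Cars*/*Cars2* at the top, the 3 red points lie to the right of all 3 grey points.

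Genes that act beside the synthetases were examined as lists. Their edgeR counts with all libraries stand beside 8.03% of all tested genes called higher and 9.15% called lower. Without scrambled ASO replicate 1, 2 or 3 edgeR called 1.45%, 3.25% and 11.0% of all tested genes higher. Without *Pgam* ASO replicate 1, 2 or 3 it called 2.1%, 1.03% and 10.2%. With library size alone it called 7.19% higher, with at least 10 counts in every library 8.49% and with no filter 6.43%. DESeq2 called 10.3% higher and limma-voom 7.99%. Mitochondria make glutaminyl-tRNA by way of an amidotransferase, encoded by *Gatb*, *Gatc* and *Qrsl1*, and *Mtfmt* adds the formyl group to initiator methionyl-tRNA. None of these 4 genes was called by edgeR, DESeq2 or limma-voom, none had an unadjusted edgeR p under 0.05, and their log2 fold changes were 0.07 for *Gatb*, -0.05 for *Gatc*, 0.15 for *Qrsl1* and 0.09 for *Mtfmt*, all with overlapping groups. Among 10 genes of mitochondrial tRNA processing and modification 2 were called higher, *Pus1* (log2 fold change 0.58) and *Elac2* (0.39). Of the 10, edgeR called 0 without scrambled ASO replicate 1 or without *Pgam* ASO replicate 1 or 2. It called 1 without scrambled ASO replicate 2, 3 without scrambled ASO replicate 3 and 2 without *Pgam* ASO replicate 3. Of 7 genes of tRNA splicing and export edgeR called 0, DESeq2 1 and limma-voom 0, and 2 had an unadjusted edgeR p under 0.05, with 1 called by edgeR without *Pgam* ASO replicate 3. Of 7 mitochondrial elongation and initiation factors edgeR called 0, DESeq2 1 and limma-voom 0, and 3 had an unadjusted edgeR p under 0.05, with 2 called by edgeR without scrambled ASO replicate 3 and 3 without *Pgam* ASO replicate 3. Of 6 cytosolic elongation factors *Eef1d* was called higher, at 0.35, by edgeR (adjusted p = 0.0496), and edgeR called 0 of the 6 without any 1 of scrambled ASO replicates 1 and 2 and *Pgam* ASO replicates 1 and 2, and 3 without scrambled ASO replicate 3. With library size alone, or with at least 10 counts in every library, edgeR called 0 of the 6, with no filter 3, and DESeq2 called 2 and limma-voom 1.

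The summed level of the ATF4 and amino acid response list was 1203, 1091 and 1408 CPM in the libraries labelled scrambled ASO and 1852, 1799 and 1702 CPM in those labelled *Pgam* ASO. Of its 14 genes 13 were tested, and edgeR called 9 higher and 0 lower, against 8.03% and 9.15% of all tested genes, with 1 lower by an unadjusted edgeR p under 0.05 and by limma-voom (*Vldlr*, a lipoprotein receptor) and 0 by DESeq2. Without *Pgam* ASO replicate 1 or 3 edgeR also called 1 lower (544 of all 15551 and 1743 of all 15464 genes were). The 9 called higher were 6 without scrambled ASO replicate 1, against 1.45% of all tested genes. They were also 6 without *Pgam* ASO replicate 2, against 1.03%. The largest called changes were those of *Chac1*, which degrades glutathione, at a log2 fold change of 2.41, *Asns*, which makes asparagine, at 1.39, and *Psat1*, of serine synthesis, at 0.88. *Vldlr* was at -1.41 (edgeR adjusted p = 0.0815), with every *Pgam* ASO library below every scrambled ASO library. The other tested genes not called were *Ddit3* (0.10), *Ddit4* (-0.11) and *Trib3* (-0.25), each with overlapping groups. As in the cytosolic synthetases, scrambled ASO replicate 2 had the lowest sum and *Pgam* ASO replicate 1 the highest. Of 8 proliferation genes 5 were called higher, against 8.03% of all tested genes, with sums of 4241, 3636 and 4345 CPM against 4756, 4953 and 4691 CPM, all 3 libraries labelled *Pgam* ASO being above the others. Of these 8, edgeR called 0 without scrambled ASO replicate 1 (1.45% of all tested genes) and 2 without scrambled ASO replicate 2 (3.25%). It called 0 without *Pgam* ASO replicate 1 (2.1%) and 0 without *Pgam* ASO replicate 2 (1.03%). The number was 7 without scrambled ASO replicate 3 (11.0%) and 5 without *Pgam* ASO replicate 3 (10.2%). With all libraries DESeq2 called 7 (10.3%) and limma-voom 6 (7.99%). *Wars* is known to be induced by interferon. Of 10 interferon-responsive genes 5 were called lower, against 9.15% of all tested genes, led by *Gbp2* at a log2 fold change of -2.41. In the other direction 1 was called higher, against 8.03%. Without scrambled ASO replicate 1 edgeR called 3 lower (397 of all 15413 genes were). Without *Pgam* ASO replicate 2 it also called 3 lower (231 of 15573). Whether any of these lists has a part in the synthetase values was not tested.

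The label of CD4 T cells was checked against markers. The 6 CD4 T cell markers summed to 2302, 2536 and 2117 CPM in the libraries labelled scrambled ASO and to 1751, 1781 and 1843 CPM in those labelled *Pgam* ASO, with *Cd4* the most abundant. *Cd28* and *Cd5* were called lower, 2 of 6 against 9.15% of all tested genes. Each of the 6 had an unadjusted edgeR p under 0.05, as had 2650 of 14936 genes in the lower direction. In each, every *Pgam* ASO library lay below every scrambled ASO library, against 19.8% of all tested genes. Of the 6 markers 1 was called without scrambled ASO replicate 1 (397 of all 15413 genes were called lower) and 5 without scrambled ASO replicate 3 (1773 of 15508). The number was 1 without *Pgam* ASO replicate 2 (231 of 15573) and 4 without *Pgam* ASO replicate 3 (1743 of 15464). Sums of other lineages were small, between 5.64 and 10.4 CPM for B cells, 1.80 and 3.51 CPM for myeloid cells, 10.8 and 15.7 CPM for CD8 T cells, with *Cd8b1* the more abundant in every library, and 0.918 and 1.77 CPM for erythroid cells. Of the NK cell markers *Klrb1c* was listed at 0 in every library, and the sum of 24.1 to 55.0 CPM was nearly all *Eomes*, which T cells also express. *Cd8a* was called higher, at 2.48, 3.08 and 2.23 CPM against 7.02, 3.66 and 6.27 CPM (2.17-fold, edgeR adjusted p = 0.0286). *Cd8b1* went the other way without being called (log2 fold change -0.20, edgeR adjusted p = 0.454, with overlapping groups), and *Eomes* was called lower (log2 fold change -0.82, edgeR adjusted p = 0.0214). edgeR did not call *Cd8a* without scrambled ASO replicate 1 or *Pgam* ASO replicate 1, nor *Eomes* without scrambled ASO replicate 1 or *Pgam* ASO replicate 1 or 2. The part of these markers in the synthetase values was not tested. In bulk RNA, fewer cells with a transcript and less of it per cell cannot be told apart.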

How the data were processed

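Estimated counts of each Ensembl gene in 6 libraries of poly(A) RNA were made with Kallisto by the authors and deposited as whole numbers, not normalized. The submitters' processing notes name GRCm38, and the Kallisto version, the annotation and the strand setting are not given in the sources used here. Of the 56748 genes listed, 52073 could be given a symbol from the name table and 52125 are in GENCODE M21. Library totals ran from 15860476 to 18032805. The test was that of edgeR 4.0.16 in R 4.3.3 (filterByExpr, TMM, robust quasi-likelihood test). Standard errors are the log2 fold change over the root of F. Levels between genes are TMM CPM per kilobase of merged exons. Ratios of pairs used a pseudocount of 0.5. The procedure was tested on simulated data, where each tool missed some changed genes and had a share of false calls above the nominal level, the largest with DESeq2. No 2 libraries of a label were within sampling noise of each other, with a chi-square per degree of freedom of at least 7.45. Sequence sharing was measured as the percent of a gene's 31-base stretches found on either strand of another gene of GENCODE M21.

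The members and lists were chosen with earlier results of these data known. By the rule for naming genes, values in every library are given in each compartment for the 4 called genes with the largest change, any called lower and the one with the smallest change, and for the 3 pairs that moved most and the 1 that moved least. *Lars2*, *Pars2* and ENSMUSG00000119584 were added after their values were seen. Alternatives were DESeq2 1.42.0, limma-voom (limma 3.58.1), RLE size factors, library size alone, upper quartile scaling, no filter, at least 10 counts in every library, a block for the replicate number, leaving out each library, an adjusted p under 0.01, pseudocounts of 0 and 1, other transcript lengths, and the mitochondrial sum without *Lars2*.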

Additional observations from a re-analysis of the deposited data

How the results depend on the processing

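The counts of calls moved with the library left out. Leaving out 1 library gave from 391 to 3484 called genes in all (2565 with all libraries), from 4 to 18 cytosolic genes called higher (15) and from 0 to 5 mitochondrial genes called higher (3). The median log2 fold change of the mitochondrial genes then ran from 0.18 to 0.27 and that of the cytosolic genes from 0.39 to 0.58. At an adjusted p under 0.01, edgeR called 453 genes in all, 6 cytosolic and 0 mitochondrial genes. With no filter on low counts, edgeR called 5 mitochondrial genes higher, against 6.43% of all genes in that fit. With library size alone the median of the mitochondrial genes was 0.20. Among the 36 genes, the sign turned for *Qars* (-0.01), *Cars2* (-0.008) and *Vars2* (-0.001) with library size alone. It also turned without single libraries for *Qars* (-0.026 to 0.103), *Cars2* (-0.054 to 0.087), *Hars2* (-0.081 to 0.037) and *Vars2* (-0.029 to 0.086). The causes were not tested, apart from fewer samples or another threshold by construction. No cytosolic or mitochondrial gene was called lower under any alternative.

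The sources used here do not say whether the replicate numbers pair the libraries. Deviations from the group mean of same-numbered libraries correlated across genes at r = 0.0534, -0.034 and -0.237. Those of libraries with different numbers ran from -0.254 to 0.28. With 3 libraries per label these deviations are tied to each other, so the values cannot decide whether libraries were paired. A block for the replicate number gave 1235 genes called by edgeR in all. Under it 10 cytosolic and 0 mitochondrial genes were called higher, against 3.21% of all tested genes. Levels per kilobase rose with shorter transcript lengths, and a pseudocount of 0 or 1 left the number of pairs with a higher ratio at 10, a count that leaving out a library cannot lower. At the depth of these libraries the least counted member, *Wars2*, had from 112 to 196 counts.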
